A study of Homo sapiens with 10 samples.

Results

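The genes described here are 36 genes of glycolysis and of the cellular response to low oxygen, chosen by name from a fixed list, among 57820 gene identifiers counted in each library. All 36 were found in the files. After the filter on low counts 35 were tested, and CA9, a carbonic anhydrase induced by low oxygen, was left out because 1 read in all 10 libraries was counted on it. The study targeted CRX, a homeobox transcription factor of photoreceptors, with short hairpin RNA in D425 and HD-MB03, a pair of cell lines from Group 3 medulloblastoma, a childhood tumour of the cerebellum, and sequenced poly(A) RNA. Every line was grown in medium with serum, and hairpin expression from the lentiviral vector Tet-pLKO-puro was switched on with doxycycline. All 10 libraries, parental and empty-vector controls included, are labelled with doxycycline at 4 µg/ml over 72 h. The groups were D425 parental cells (2 libraries), D425 with the empty vector (1), D425 with a hairpin against CRX (shCRX, 3), HD-MB03 parental cells (1), HD-MB03 with the empty vector (1) and HD-MB03 with shCRX (2). The transduced cells were stable polyclonal populations. The hairpins formed a pair, and which of them each shCRX library carries is not in the labels. Parental and empty-vector libraries served together as controls of their line. The oxygen level of the cultures is not given in the labels, and no group is labelled as hypoxic.

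Glycolysis converts glucose to pyruvate in a fixed series of enzyme steps, and several steps are carried out by alternative enzymes from related genes (paralogs), which differ in regulation and in tissue use. When oxygen is low, the prolyl hydroxylases EGLN1 and EGLN3 no longer mark the alpha subunits HIF1A and EPAS1 for degradation, and the stabilised factors raise the transcription of glucose transporters, glycolytic enzymes and genes such as VEGFA. HIF alpha subunits are controlled mainly at the protein level, so their RNA is not a readout of their activity. MYC, which is highly expressed in many Group 3 tumours, is also known to raise the transcription of glycolytic genes.

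Between 1.96 and 18.06 M reads were counted in genes per library, and levels are given as CPM, counts scaled to each library's effective size, on which scale 3 counts stood for 0.168 in the deepest library and 1.61 in the shallowest. Both HD-MB03 controls stood apart, with 30.9% and 26.4% of reads not aligned against between 4.54% and 7.99% in the other 8 libraries. The numbers in the deposited library names split the series into a low set (D425 shCRX and HD-MB03 controls, 5 libraries) and a high set (D425 controls and HD-MB03 shCRX, 5 libraries). Within a line, arm and set cannot be told apart. CRX itself was at 47.4 ± 17.6 CPM in D425 controls and 22.2 ± 2.75 in D425 shCRX (SD, n = 3 each), a log2 fold change of -1.10 ± 0.26 (SE; edgeR test, adjusted p = 0.0436). The call was lost on leaving out any library other than D425 parental replicate 2, at an adjusted p from edgeR of 0.0533 to 0.171. In HD-MB03 it was at 12.4 ± 0.113 CPM in controls and 25.6 ± 3.00 in the libraries labelled shCRX (SD, n = 2 each), a log2 fold change of 1.04 ± 0.36 (edgeR test, adjusted p = 0.174). CRX thus went against the label in HD-MB03, and every direction given for that line is for the libraries labelled shCRX. Group 3 markers such as OTX2 and MYC were present in every group, with a summed level of the 8 listed markers from 2983 to 8900 CPM. NPR3, also among the 8, was nearly absent, with 23 reads in all and at most 1.61 CPM in a library. Its mean was 0 in D425 shCRX and in HD-MB03 controls. Summed markers of immune, endothelial, fibroblast, astrocyte and erythroid cells were at most 14.1 CPM in any library, and CD3E and HBB were at 0. Epithelial markers (EPCAM, CDH1, KRT8 and KRT18) summed to at most 14.3 CPM in 9 libraries and to 30.8 in HD-MB03 shCRX replicate 2. In RNA from whole cultures, fewer cells expressing a gene and less RNA per cell cannot be told apart.

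The first question was how high the members stood and which paralog served each step. Levels were divided by the length of all exons of a gene (CPM per kilobase) wherever genes are compared with each other. By this length LDHB, the subunit of the heart-type lactate dehydrogenase, had the highest mean of the 36 in both lines. It was at 509 ± 109 CPM per kilobase in D425 and 576 ± 122 in HD-MB03 (SD, n = 6 and 4). ENO1 (enolase), GAPDH, TPI1 (triosephosphate isomerase) and ALDOA (aldolase) followed in D425, at between 236 and 363 CPM per kilobase. PKM, the pyruvate kinase that makes pyruvate and ATP in the last step of the pathway, ranked 6th in D425 with 210.3 ± 65.2 and 2nd in HD-MB03 with 559 ± 167. Among the 6 highest, neighbours in this order lay within their SD of each other, except LDHB above ENO1 in D425 and GAPDH above ALDOA in HD-MB03, whose gaps were larger than either SD. The order depended on the length used. PKM measures 8.57 kb over all exons and 3.02 kb as its longest transcript, and LDHB 2.98 and 1.54 kb. Per kilobase of longest transcript, PKM stood above LDHB in HD-MB03. In the HD-MB03 controls PKM was above LDHB by exon length too, at 699 ± 28.2 and 681 ± 0.485 (SD, n = 2). At the low end, CA9, ADM, SLC16A3, EGLN3, PFKFB4 and ALDOC were the 6 lowest in D425, with means of at most 1.08 CPM per kilobase.

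**Figure D1:**
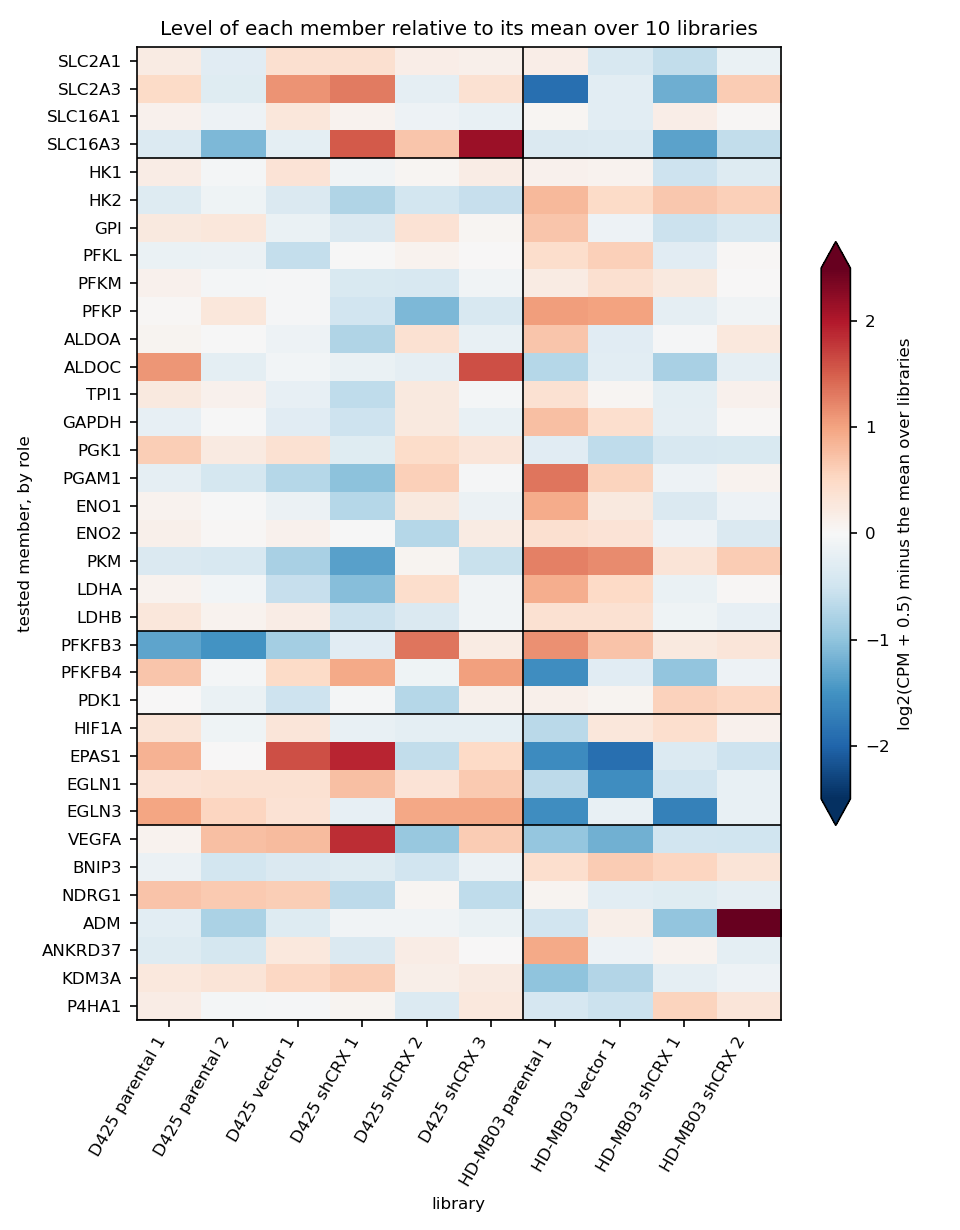
Level of each tested member (rows, grouped by role from transporters at the top to hypoxia-induced genes at the bottom) in each of the 10 libraries (columns), as log2(CPM + 0.5) minus the mean of that member over the libraries. Red is above and blue below the member's own mean. HK2, PKM and BNIP3 are higher in all 4 HD-MB03 libraries than in all 6 of D425, and most glycolytic enzymes are low in D425 shCRX replicate 1.

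At most steps the same paralog among the members held most of the length-corrected reads in both lines. Paralogs outside the member list, such as ENO3 and HKDC1, are not part of these shares and are given further below. Among glucose carriers, SLC2A1, the widely expressed glucose transporter, made up 95.02% ± 1.63 of the pair with SLC2A3 in D425 and 96.5% ± 2.58 in HD-MB03 (SD, n = 6 and 4, as for all shares here). ALDOA held at least 98.9% of the aldolase pair in every library, with the neural form ALDOC at between 0.0882% and 1.12%. ENO1 held 91.2% ± 2.71 and 92.4% ± 1.64 of the enolase pair, the rest being ENO2, the neuronal enolase. Of the lactate dehydrogenase pair, LDHB held 74.75% ± 7.31 and 70.5% ± 3.62, and LDHA, the form that is induced by low oxygen, held the rest. SLC16A1, which carries lactate across the cell membrane, held at least 98.5% of its pair with SLC16A3, the lactate exporter of highly glycolytic cells, in each library. Of the prolyl hydroxylase pair, EGLN1 held 89.1% ± 3.67 in D425 and 91.2% ± 8.53 in HD-MB03. With the longest transcript of each gene it held 76.7% ± 7.03 and 81.7% ± 15.7, and EGLN3 had 1 and 4 reads in the HD-MB03 controls.

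The step carried out by phosphofructokinase, the main control point of glycolysis, was divided among 3 genes. PFKM, named for muscle, held 53.8% ± 2.74 in D425 and 50.2% ± 8.82 in HD-MB03, PFKP, the platelet form, 28.8% ± 5.76 and 34.4% ± 8.23, and PFKL, the liver form, 17.4% ± 4.78 and 15.4% ± 1.59. The PFKP share differed by arm in both lines. It was 30.5, 36.1 and 32.7% in the D425 controls against 27.95, 19.5 and 26.02% in D425 shCRX, and 43.3 and 39.4% in the HD-MB03 controls against 25.9 and 29.2% in HD-MB03 shCRX. In neither line did the arms overlap, and the arms there coincide with the library-number sets.

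Hexokinase, which traps glucose in the cell as its phosphate, was a step at which the paralogs divided differently in the lines. HK1 is the housekeeping form, and HK2 is the form found in muscle, fat and many tumours. HK2 made up 33.0, 40.2 and 30.3% of the pair in the D425 controls and 30.7, 32.9 and 29.3% in D425 shCRX. In HD-MB03 it made up 53.45 and 47.9% in the controls and 61.7 and 57.1% in the libraries labelled shCRX. Every HD-MB03 library was thus above every D425 library, with means of 32.7% ± 3.93 and 55.0% ± 5.82. Which gene held the majority depended on the length used, since with the longest transcript of each gene the HK2 share was 24.5% ± 3.36 and 45.05% ± 5.81. The ratio of HK2 to HK1 within a library needs no length to be compared between lines. Its log2 value was -1.10 ± 0.25 in D425 and 0.24 ± 0.34 in HD-MB03 (SD, n = 6 and 4), a difference of -1.34 or 2.53-fold. By an exact permutation test, two-sided, over the 210 arrangements of 6 against 4 libraries, p was 0.00476, the smallest this design can give, and 0.0524 after Benjamini-Hochberg adjustment over the 11 ratios compared. The difference was -1.197 within the low and -1.48 within the high set.

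The HIF alpha subunits also divided differently. EPAS1, the subunit known from endothelium, made up 17.9, 14.01 and 27.3% of its pair with HIF1A in the D425 controls, 39.5, 10.3 and 20.2% in D425 shCRX, 7.10 and 3.03% in the controls of HD-MB03 and 8.0 and 8.73% in the HD-MB03 libraries labelled shCRX. Again no HD-MB03 library reached any D425 library, although D425 shCRX alone ran from 10.3 to 39.5%. The log2 ratio of EPAS1 to HIF1A differed by 1.89 between the lines (exact permutation p = 0.00952; adjusted p = 0.0524). PFKFB3 and PFKFB4 make and break down the small sugar phosphate that activates phosphofructokinase. PFKFB3 held 84.95% ± 7.25 of that pair in D425 and 96.85% ± 1.855 in HD-MB03, and the log2 ratio of PFKFB4 to PFKFB3 differed by 2.35 (exact permutation p = 0.0333; adjusted p = 0.122). For the other 8 ratios p was between 0.0714 and 0.933 before adjustment, and none of the 11 passed at an adjusted p of 0.05. Without D425 shCRX replicate 2 the ratios of HK2, EPAS1 and PFKFB4 passed (exact permutation adjusted p = 0.0291 for each). Leaving out any other library gave an adjusted p of up to 0.131 for HK2 and EPAS1 and of up to 0.306 for PFKFB4. Fewer libraries give fewer arrangements, which raises the smallest p this test can give. A pass or a loss here therefore does not by itself show dependence on a library.

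**Figure D2:**
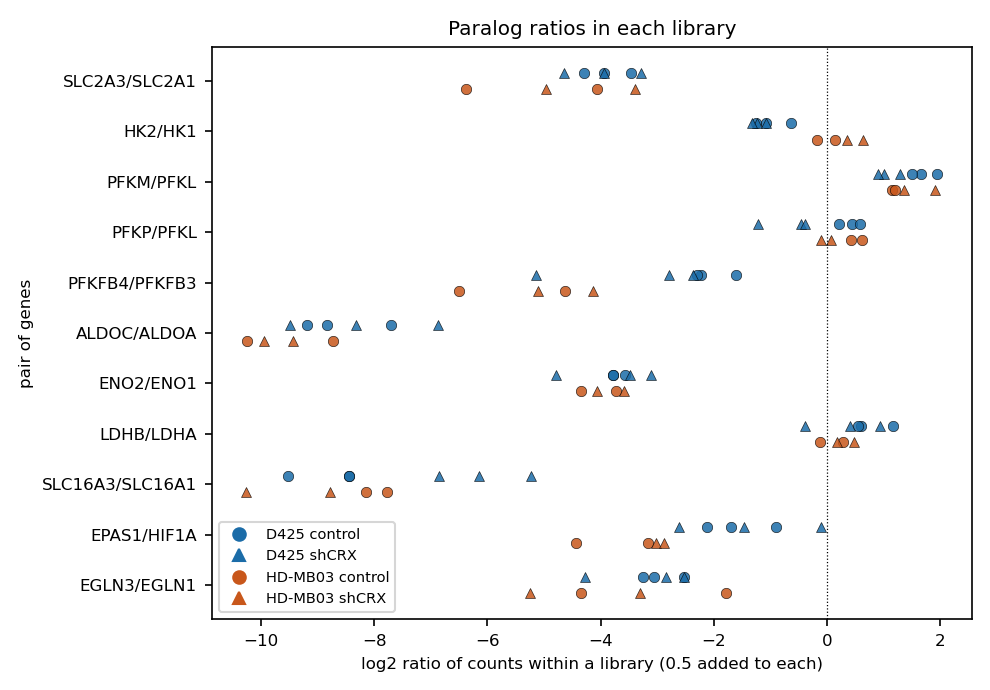
Log2 ratio of the counts of paired genes within a library (horizontal axis, 0.5 added to each count) for 11 pairs (vertical axis). Circles are controls, triangles are shCRX libraries, blue is D425 and orange HD-MB03. HK2/HK1 and EPAS1/HIF1A are the pairs in which no library of one line falls within the range of the other.

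The lines were then compared gene by gene, with the mean over both arms in each line. A difference between the library-number sets cancels here if it is of equal size in both lines, which was not tested. Of the 35 members tested, 16 passed at an adjusted p under 0.05, 8 higher and 8 lower in D425. Over all 16006 genes tested the share that passed was 46.0% (24.4% higher and 21.6% lower), so the members' share is near that of all genes. With library totals in place of TMM scaling the split was 11 higher and 5 lower, where it was 4514 and 2920 over all genes. Without the low-count filter it was 10 higher and 6 lower, where it was 4428 and 3309 over all genes. In the main fit it was 3905 and 3460 over all genes, so the split of all genes moved too. The median log2 fold change was -0.10 over the members and 0.05 over all genes. Of the 17 enzymes, 5 were lower in D425 (HK2, PFKM, PFKP, PGAM1 and PKM) and 1 was higher (PGK1). The calls of PFKM and PGAM1 were weak: that of PFKM was kept without D425 shCRX replicate 3 and lost on leaving out any of the other 9 libraries (adjusted p from edgeR 0.0536 to 0.184), and that of PGAM1 was kept without D425 parental replicate 1, D425 shCRX replicate 2 or the HD-MB03 vector library and lost without any of the other 7 (0.0573 to 0.227). Of the 4 genes of HIF subunits and prolyl hydroxylases, 3 were higher in D425 (EPAS1, EGLN1 and EGLN3) and none was lower. EPAS1 did not pass in the high set or in shCRX libraries alone. EGLN3, with 41 reads in HD-MB03, passed in neither set and in neither arm alone.

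PKM was at 1995, 1944 and 1463 CPM in the D425 controls, 1005, 2668 and 1739 in D425 shCRX, 6162 and 5821 in the controls of HD-MB03 and 3204 and 3976 in the HD-MB03 libraries labelled shCRX. All 4 HD-MB03 libraries were above all 6 of D425, the nearest being D425 shCRX replicate 2. The log2 difference was -1.36 ± 0.23 (SE), a 2.57-fold lower level in D425 (edgeR test, adjusted p = 3.69e-04). The counts are per gene, so the splice forms of PKM, of which one is typical of tumours, are not separated.

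HK2 was at 143, 166 and 139.5 CPM in the D425 controls, 106, 129.9 and 120.5 in D425 shCRX, 315 and 249.9 in the controls of HD-MB03 and 287 and 271 in HD-MB03 shCRX. The lines did not overlap, and the log2 difference was -1.08 ± 0.13 (edgeR test, adjusted p = 3.8e-05), the smallest adjusted p among the members. HK1 was at 286 ± 31.8 and 241 ± 50.4 CPM (SD, n = 6 and 4) and did not pass, with a log2 difference of 0.27 ± 0.14 (edgeR test, adjusted p = 0.124). The other lower enzymes were less far apart, with log2 differences of -0.36 for PFKM, -0.70 for PFKP and -0.71 for PGAM1, phosphoglycerate mutase. PGAM1 was level between the lines in the shCRX libraries alone (0.0099), and PFKP was 0.26 higher in D425 within the high set.

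PGK1, phosphoglycerate kinase, is the first ATP-producing step and moved the other way. It was at 1193, 908 and 1012 CPM in the D425 controls, 633, 1067 and 960.2 in D425 shCRX, 639.7 and 498 in the controls of HD-MB03 and 588.5 and 597 in HD-MB03 shCRX. Only D425 shCRX replicate 1 fell within the range of HD-MB03, and the log2 difference was 0.72 ± 0.17 (edgeR test, adjusted p = 0.00451). Among the other enzymes GAPDH (-0.39), LDHA (-0.46), ENO1 (-0.28) and LDHB (-0.17) had log2 differences that did not pass, with an adjusted p from edgeR between 0.0692 and 0.322.

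The genes that steer the flow of sugar differed in both directions. PDK1, which shuts off pyruvate dehydrogenase and so keeps pyruvate from the mitochondria, was at 46.8 ± 9.93 CPM in D425 and 67.7 ± 12.2 in HD-MB03 (SD, n = 6 and 4), a log2 difference of -0.52 ± 0.18 (edgeR test, adjusted p = 0.0305). The PDK1 call was lost without the D425 vector library, D425 shCRX replicate 2 or any HD-MB03 library (adjusted p from edgeR 0.0606 to 0.0906), with library totals (0.0992) and without the low-count filter (0.0567). PFKFB3 was lower in D425 by a log2 difference of -0.93 ± 0.27 (edgeR test, adjusted p = 0.0154), with 0.31 in the opposite direction in the shCRX libraries alone. PFKFB4 was at between 3.72 and 8.70 CPM in D425 and between 1.04 and 3.65 in HD-MB03, with no overlap and a log2 difference of 1.36 ± 0.42 (edgeR test, adjusted p = 0.0179).

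Of the HIF subunits, EPAS1 was at 38.6, 21.3 and 65.6 CPM in the D425 controls, 80.3, 13.65 and 29.9 in D425 shCRX, 6.77 and 5.36 in the controls of HD-MB03 and 16.5 and 14.6 in HD-MB03 shCRX. D425 shCRX replicate 2 was the one D425 library within the HD-MB03 range. The log2 difference was 2.11 ± 0.51, a 4.305-fold higher level in D425 (edgeR test, adjusted p = 0.00538). HIF1A was at 99.1 ± 19.6 and 106 ± 31.1 CPM (SD, n = 6 and 4), a log2 difference of -0.10 with a 95% interval from -0.50 to 0.29. EGLN1, the main oxygen-sensing hydroxylase, ran from 31.35 to 41.9 CPM in D425 and from 8.04 to 21.6 in HD-MB03, with no overlap and a log2 difference of 1.19 ± 0.20 (edgeR test, adjusted p = 3.76e-04). EGLN3, a hydroxylase that HIF itself induces, was higher by 1.68 ± 0.55 (edgeR test, adjusted p = 0.0242) at low levels, with 41 reads in all in HD-MB03.

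Genes that low oxygen is known to induce did not shift as a group. VEGFA, the growth factor for blood vessels, was higher in D425 by 1.54 ± 0.42 (edgeR test, adjusted p = 0.0106), at 198 ± 122 CPM against 68.8 ± 16.5 (SD, n = 6 and 4). KDM3A, a histone demethylase, was also higher, at between 99.5 and 138 CPM against between 44.2 and 81.85, a log2 difference of 0.89 ± 0.15 (edgeR test, adjusted p = 4.36e-04). BNIP3, which targets mitochondria for autophagy, was lower instead, at 36.8 ± 3.73 CPM against 64.5 ± 6.19, a log2 difference of -0.81 ± 0.14 (edgeR test, adjusted p = 5.97e-04). NDRG1 (0.32), P4HA1 (0.05) and ANKRD37 (-0.35) had log2 differences that did not pass. ADM, adrenomedullin, had 160 reads in HD-MB03, and 154 of them lay in shCRX replicate 2, the library with the highest sum of epithelial markers, whose part in this value was not tested. In all, 6 members had levels that did not overlap between the lines (HK2, PKM and BNIP3 lower in D425, EGLN1, KDM3A and PFKFB4 higher), against 29.1% of all genes tested.

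Among transporters, SLC16A3 was higher in D425 by 1.52 ± 0.55 (edgeR test, adjusted p = 0.037), but the difference was -0.25 in the control libraries alone. SLC2A1 (0.42), SLC2A3 (1.10) and SLC16A1 (0.01) had log2 differences that did not pass. HK2, PKM, BNIP3 and EGLN1 passed in the same direction in the low set, in the high set, in controls alone and in shCRX libraries alone. Counts of members called were 12 in the low set and 10 in the high set, where 30.7% and 31.2% of all genes passed, and 13 in controls alone and 6 in shCRX libraries alone, where 34.3% and 32.8% passed. Leaving out HD-MB03 parental replicate 1 or HD-MB03 shCRX replicate 1 leaves 1 library in a group. Fewer members, and fewer of all genes, were then called in the comparison of the lines. Of the 16 calls, 8 were kept whichever single library was left out (HK2, PKM, PFKP, PGK1, EPAS1, EGLN1, KDM3A and BNIP3). Besides PFKM, PGAM1 and PDK1, the call was lost without HD-MB03 parental replicate 1 for PFKFB3 and without it or HD-MB03 shCRX replicate 1 for PFKFB4, without either HD-MB03 shCRX library for VEGFA, and without D425 shCRX replicate 3, HD-MB03 parental replicate 1 or HD-MB03 shCRX replicate 1 for EGLN3. The SLC16A3 call was lost without D425 parental replicate 1, the D425 vector library, D425 shCRX replicate 3, either HD-MB03 control or HD-MB03 shCRX replicate 1. Over these 5 genes the adjusted p from edgeR was then 0.0512 to 0.118.

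**Figure D3:**
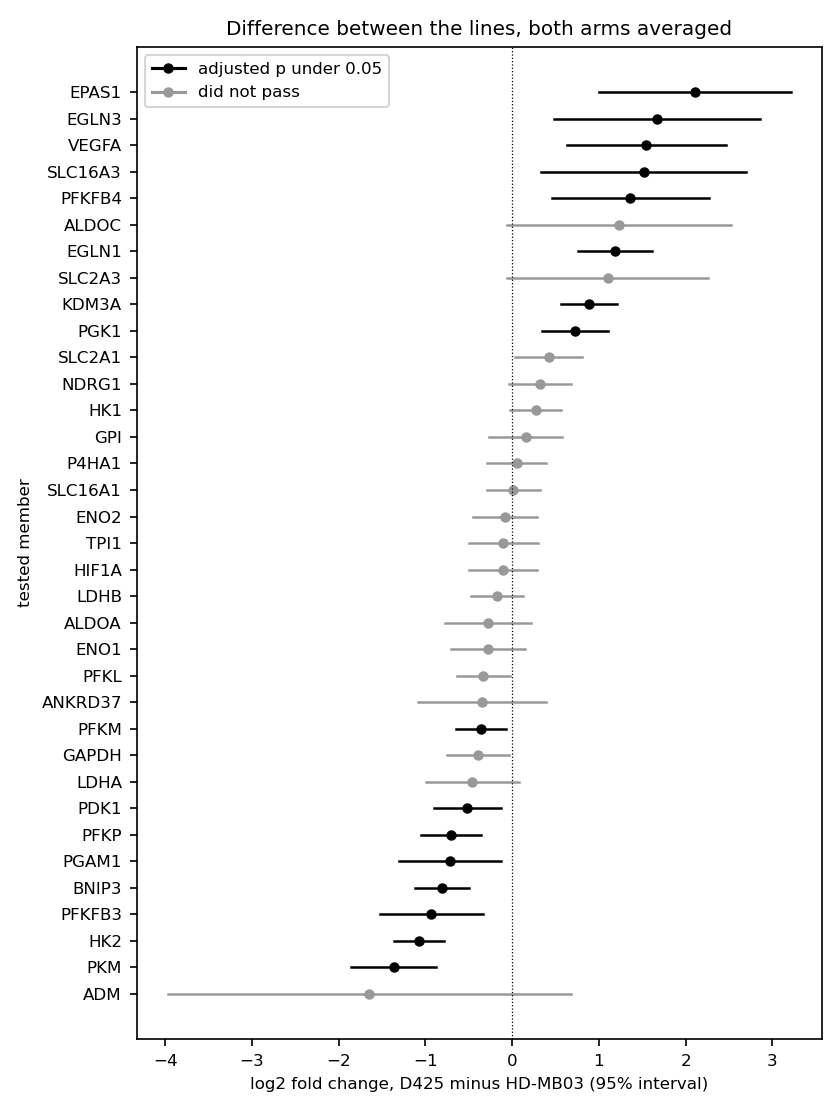
Log2 fold change of D425 minus HD-MB03, with both arms averaged, for the 35 tested members in order of size; lines are 95% intervals. Black marks the 16 members that passed and grey those that did not; BNIP3, HK2 and PKM lie to the left of 0 and EGLN1, EPAS1 and EGLN3 to the right.

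Promoters of members that passed between the lines are shown because the members carrying the core of the hypoxia response element, the sequence bound by HIF, were found on either side of 0. The sequences are the RefSeq windows on GRCh38.p14, from 250 bases before to 50 bases after the gene's start, read 5′ to 3′ on the gene's strand, with each match to ACGTG or its reverse complement CACGT in capitals. PGK1 lies at chrX:78103998-78104297 on the plus strand, HK2 at chr2:74833877-74834176 on the plus strand, BNIP3 at chr10:131981874-131982173 on the minus strand and PFKFB3 at chr10:6144671-6144970 on the plus strand.
PGK1: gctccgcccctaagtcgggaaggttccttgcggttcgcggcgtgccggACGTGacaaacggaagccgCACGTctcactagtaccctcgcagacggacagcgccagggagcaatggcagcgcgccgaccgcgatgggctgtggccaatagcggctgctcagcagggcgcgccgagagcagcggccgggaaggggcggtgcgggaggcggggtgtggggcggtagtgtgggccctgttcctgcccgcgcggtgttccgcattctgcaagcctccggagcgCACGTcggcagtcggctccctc
HK2: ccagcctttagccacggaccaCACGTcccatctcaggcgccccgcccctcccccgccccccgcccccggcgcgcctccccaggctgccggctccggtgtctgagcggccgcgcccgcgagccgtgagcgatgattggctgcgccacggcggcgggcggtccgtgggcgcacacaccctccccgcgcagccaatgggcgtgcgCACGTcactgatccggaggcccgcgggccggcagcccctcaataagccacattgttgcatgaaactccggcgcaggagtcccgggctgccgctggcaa
BNIP3: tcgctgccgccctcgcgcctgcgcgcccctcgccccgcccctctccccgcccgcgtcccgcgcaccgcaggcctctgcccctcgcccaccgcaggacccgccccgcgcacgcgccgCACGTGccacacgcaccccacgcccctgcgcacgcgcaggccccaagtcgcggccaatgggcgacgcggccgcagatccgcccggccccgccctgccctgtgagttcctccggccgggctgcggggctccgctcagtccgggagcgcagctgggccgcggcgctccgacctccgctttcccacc
PFKFB3: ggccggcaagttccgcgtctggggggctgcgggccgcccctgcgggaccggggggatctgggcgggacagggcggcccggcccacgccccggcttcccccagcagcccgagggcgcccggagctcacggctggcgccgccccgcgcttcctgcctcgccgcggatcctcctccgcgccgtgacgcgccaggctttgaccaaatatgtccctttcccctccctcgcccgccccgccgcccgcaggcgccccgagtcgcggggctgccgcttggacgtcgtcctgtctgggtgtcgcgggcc
PGK1, which was higher in D425, holds 3 matches, at positions -202, -183 and 29 counted from the gene's start. HK2 and BNIP3, which were lower in D425, hold 2 matches each, and those of BNIP3 overlap in a palindrome, CACGTG, which is also the E-box bound by MYC and MAX. PFKFB3 holds none of these letters in this window. Of the 36 members, 32 matched the promoter table, and SLC2A3, SLC16A1, VEGFA and NDRG1 did not. The core occurred in 13 of the 32 (40.6%), against 21.6% of all 27305 promoters, and CACGTG in 5 (15.6%) against 7.43%. By comparison between the lines, the core was in 2 of 7 members higher in D425 (EGLN1 and PGK1), 2 of 8 lower (BNIP3 and HK2) and 8 of 16 that did not pass, LDHA, GAPDH, GPI and ALDOA among them. A match is only a match of letters and no binding was measured.

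The study's own question was the effect of shCRX. In D425, 3 of the 35 members passed, against 2.97% of all genes tested, with PFKFB3 and SLC16A3 higher (1.61% of all genes) and NDRG1 lower (1.37%). At an unadjusted p under 0.05 there were 5, and all genes were not counted at that threshold, so no excess can be read from it. The median log2 fold change of the members was -0.00084, and that of all genes 0.02. None of the 17 glycolytic enzymes passed in this fit. With DESeq2, PFKP and LDHB passed as lower, where 959 of all genes passed. Without the low-count filter PFKP passed as lower, where 1211 of all genes did.

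PFKFB3 was at 20.8, 18.3 and 28.8 CPM in the D425 controls and at 43.3, 134 and 61.1 in D425 shCRX. All 3 shCRX libraries were above all controls, and replicate 2 was the highest. The log2 fold change was 1.81 ± 0.36, or 3.50-fold (edgeR test, adjusted p = 0.0209). Without D425 parental replicate 1 or 2 the adjusted p from edgeR was 0.0649 and 0.0668, and without shCRX replicate 2 the log2 fold change was 1.18.

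SLC16A3, the lactate exporter, was at 1.06, 0.404 and 1.18 CPM in the controls (19, 5 and 13 reads) and at 5.26, 2.69 and 8.19 in D425 shCRX (57, 13 and 32 reads). The arms did not overlap and the log2 fold change was 2.57 ± 0.57, or 5.95-fold (edgeR test, adjusted p = 0.0306). These levels stayed low beside SLC16A1, which was at 378 ± 51.9 CPM in controls and 336.5 ± 33.8 in shCRX (SD, n = 3 each). The SLC16A3 call was lost without D425 parental replicate 1 or 2, the vector library, D425 shCRX replicate 1 or 3, or either HD-MB03 control, with an adjusted p from edgeR between 0.0519 and 0.120.

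NDRG1, a stress-induced gene of the hypoxia response linked to differentiation, was at 432, 412 and 404 CPM in the controls and at 166, 270.5 and 169.8 in D425 shCRX. It fell by 1.04 on the log2 scale, to 202 ± 59.1 CPM from 416 ± 14.3 (SD, n = 3 each; edgeR test, adjusted p = 0.0194). The adjusted p from edgeR was 0.0692 without parental replicate 1, 0.0583 without the vector library and 0.0749 without shCRX replicate 3. Other hypoxia-induced members did not pass in D425, among them VEGFA with a log2 fold change of 0.35 ± 0.49, BNIP3 with 0.00 ± 0.18 and KDM3A with -0.02 ± 0.18. With the parental libraries as the sole controls no member passed in D425, where 104 of all genes passed, against 476 with all controls. The vector library as the sole control leaves 1 control library, and fewer of all genes passed there as well.

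In HD-MB03, 1 member passed, against 1.51% of all genes tested, and it was lower, as 1.24% were. PFKP was at 219.6 and 214 CPM in the controls and at 91.6 and 100.3 in the libraries labelled shCRX. Within each arm the libraries were close and the arms were far apart, and PFKP fell by 1.18 ± 0.25 on the log2 scale, 2.26-fold (edgeR test, adjusted p = 0.0386). In D425, PFKP was at 109, 129.7 and 105.2 CPM in the controls and at 76.2, 48.6 and 80.3 in shCRX, a log2 fold change of -0.74 ± 0.20 that did not pass (edgeR test, adjusted p = 0.0693), though the arms did not overlap. In the mean of the lines a difference between the library-number sets cancels only if it is of equal size in both lines. PFKP was the only member that passed there, with a log2 fold change of -0.96 ± 0.16 (edgeR test, adjusted p = 0.0376). Of all genes 0.225% passed, 0.0187% higher and 0.206% lower. CRX itself had a log2 fold change of -0.03 ± 0.23 in that mean (edgeR test, adjusted p = 0.978), since it went opposite ways in the lines. The call in HD-MB03 was lost with library totals (edgeR test, adjusted p = 0.0600), without D425 parental replicate 1, the D425 vector library, D425 shCRX replicate 3 or any HD-MB03 library, at adjusted p from 0.0535 to 0.239. In the mean of the lines it was lost with library totals and on leaving out any control or either HD-MB03 shCRX library, at an adjusted p from edgeR of 0.0511 to 0.233, with log2 fold changes from -0.99 to -0.87.

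The other 16 enzymes did not pass in HD-MB03. Log2 fold changes were negative for 16 of the 17 enzymes, PFKP included, with a median of -0.61 against 0.10 over all genes. PGAM1 (-1.01), ENO1 (-0.87), GPI, glucose phosphate isomerase (-0.81), LDHA (-0.79), PKM (-0.74) and GAPDH (-0.69) had an adjusted p from edgeR between 0.184 and 0.322. P4HA1, a collagen prolyl hydroxylase (0.92), and KDM3A (0.70) had positive values that did not pass (edgeR test, adjusted p = 0.0932 and 0.160). At an unadjusted p under 0.05 there were 12 members, and all genes were not counted at that threshold, so no excess can be read from it. Levels of 19 members did not overlap between the arms, where 52.3% of all genes tested did not overlap, so this count is near that of all genes. By direction, 13 of the 35 members (37.1%) lay wholly lower with shCRX and 6 (17.1%) wholly higher, against 21.8% and 30.5% of all genes. In D425 the count was 10 against 23.0%. The share of reads not aligned differed between the HD-MB03 arms as given above, and its part in these values was not tested.

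**Figure D4:**
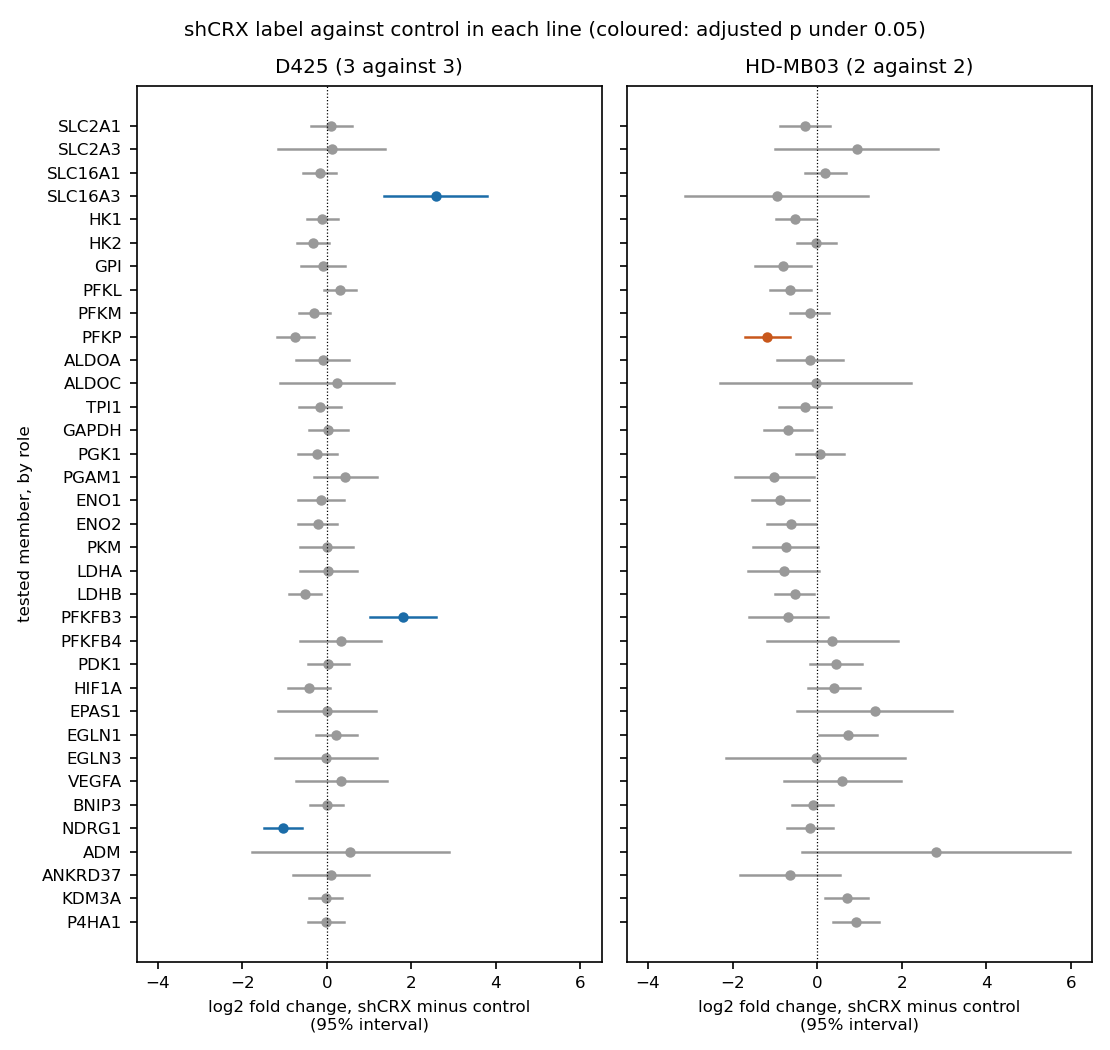
Log2 fold change of shCRX minus control for each tested member in D425 (left, 3 against 3 libraries) and HD-MB03 (right, 2 against 2), with 95% intervals, grouped by role from transporters to hypoxia-induced genes. SLC16A3, PFKFB3 and NDRG1 are coloured as called in D425 and PFKP in HD-MB03; most enzymes lie left of 0 in HD-MB03.

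The difference of the shCRX effects between the lines was itself tested, and 1 member passed, against 4.16% of all genes tested (2.67% with a positive and 1.49% with a negative difference). PFKFB3, at 118 and 86.3 CPM in the controls of HD-MB03 and 62.7 and 64.7 in the libraries labelled shCRX, had a log2 fold change of -0.68 ± 0.43 there, and the effects differed by 2.49 ± 0.56 (edgeR test, adjusted p = 0.0308). The call was lost without D425 parental replicate 1 or 2, HD-MB03 parental replicate 1, or either HD-MB03 shCRX library. In this comparison the library-number sets fall wholly on the difference, so the set and the effect cannot be told apart. PFKFB3 was higher in the low set than in the high set in either line. For SLC16A3 the difference was 3.53 ± 1.22 (edgeR test, adjusted p = 0.123), for NDRG1 -0.87 ± 0.33 (edgeR test, adjusted p = 0.152) and for PFKP 0.43 ± 0.32 (edgeR test, adjusted p = 0.475), so the effects on these genes were not shown to differ between the lines.

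**Figure D5:**
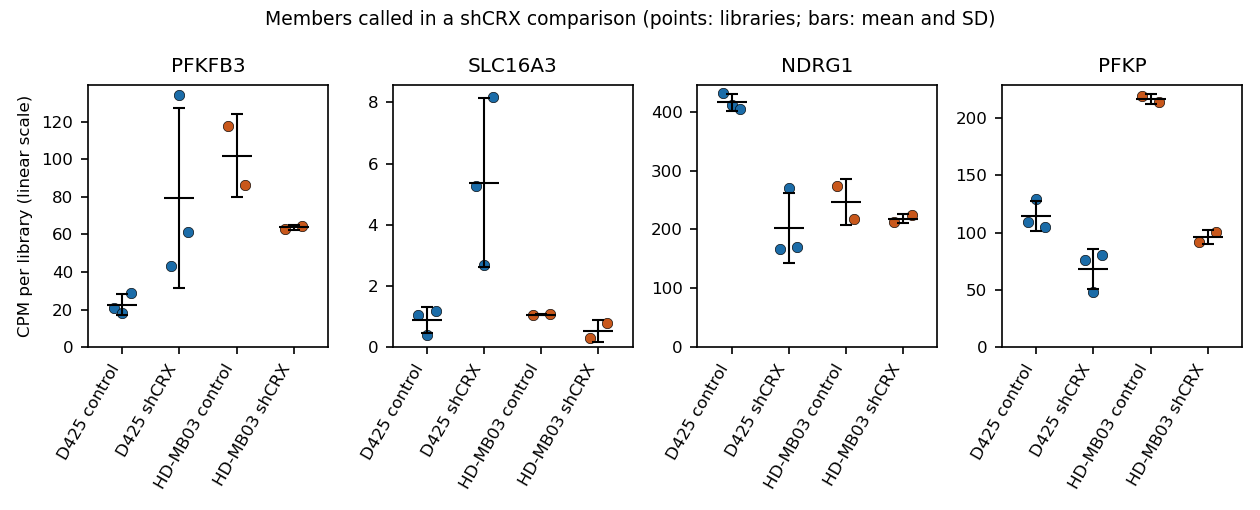
CPM in each library (points, linear axis from 0) of the 4 members called in a comparison of shCRX with control, by line and arm; bars are the mean and SD of 3 (D425) or 2 (HD-MB03) libraries. In D425, PFKFB3 and SLC16A3 sit higher and NDRG1 lower in shCRX than in any control, and PFKP drops from 217 to 95.9 CPM on average in HD-MB03.

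Libraries of the same group differed along the pathway. In D425 shCRX, 11 of the 17 enzymes (HK2, GPI, PFKL, ALDOA, TPI1, GAPDH, PGK1, PGAM1, ENO1, PKM and LDHA) were lowest in replicate 1 and highest in replicate 2, and none had the reverse order. Over all genes tested, 23.0% had the first order and 23.7% the reverse. LDHA ran from 562 CPM in replicate 1 to 1110 in replicate 3 and 1592 in replicate 2, and PGAM1 from 68.4 to 138 and 213. The median log2 difference of replicate 2 minus replicate 1 was 0.73 over the enzymes and -0.02 over all genes. Among the other members the order was reversed for VEGFA, EPAS1, EGLN1, KDM3A and SLC2A3, with VEGFA at 421 CPM in replicate 1, 181 in replicate 3 and 60.4 in replicate 2. PFKFB3, EGLN3, NDRG1 and ANKRD37 had the order of the 11 enzymes, whereas the enzymes PFKM, PFKP, ALDOC and ENO2 were lowest in replicate 2. In the HD-MB03 controls the parental library was above the vector library for 14 of the 17 enzymes, where 44.6% of all genes were, with ALDOA at 1577 and 795 CPM and ENO1 at 3873 and 2390. D425 shCRX replicates 1, 3 and 2 held 9.53, 3.64 and 4.73 M counted reads, and the part of depth in this order was not tested. Across members, the median SD of log2 levels within a group was 0.40 in D425 shCRX (0.32 over all genes), 0.24 in D425 controls (0.24), 0.23 in HD-MB03 controls (0.29) and 0.17 in HD-MB03 shCRX (0.17).

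Other genes of the same pathways were counted from lists drawn up alongside the members. Over the 5 lists 22 of 78 tested genes were higher and 16 lower in D425, where 24.4% and 21.6% of all genes were, so these counts are near the background. Of 10 other glycolytic enzymes tested, 4 were higher and 2 lower in D425. HKDC1, a hexokinase-like enzyme, was at 72.5 ± 69.5 CPM in D425 controls and 2.12 ± 0.792 in HD-MB03 controls (SD, n = 3 and 2; log2 difference over both arms 4.53 ± 0.89, edgeR test, adjusted p = 0.00159). ENO3, the muscle enolase, was lower in D425 (-1.76) and TIGAR, which lowers the activator of phosphofructokinase, higher (1.26). LDHC, the testis form, had 66 reads in D425 and 8 in HD-MB03. Of 15 genes of the pentose phosphate path and side branches, 6 were higher and 2 lower in D425, with PYGL, glycogen phosphorylase (1.47), and PGD (0.96) higher and GPD2, a mitochondrial glycerol phosphate dehydrogenase (-1.23), lower.

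Of 15 genes of pyruvate handling, 6 were higher and 3 lower. PDK4 (2.24), PDK3 (1.93) and PDK2 (1.18), kinases that shut off pyruvate dehydrogenase as PDK1 does, were all higher in D425, whereas PDK1 was at -0.52, a call lost on leaving out any of 6 libraries. MPC1, a subunit of the mitochondrial pyruvate carrier, was lower (-0.78). Of 13 other HIF pathway components, 1 was higher (CUL2, a scaffold of the ligase that marks HIF for degradation, 0.79) and 4 were lower, among them CITED2, which competes with HIF for its coactivator (-1.54), and HIF1AN, the asparagine hydroxylase of HIF (-0.53). ARNT2, a partner of HIF alpha subunits, had 3 reads in D425 and 80 in HD-MB03. Of 26 other hypoxia-induced genes, 5 were higher and 5 lower, with BNIP3L (1.74) and KDM4B (0.99) higher and STC2 (-1.58) lower. The STC2 call was lost on leaving out any of 7 libraries, those of LDHC and HIF1AN without HD-MB03 parental replicate 1, and that of HIF1AN also without HD-MB03 shCRX replicate 1. ANGPTL4 had 137 reads in D425 and 8 in HD-MB03. BNIP3 and its close relative BNIP3L, both receptors for mitochondrial autophagy, thus differed between the lines in opposite directions.

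With shCRX, 2 genes of these lists passed. CA12, a membrane carbonic anhydrase related to CA9, fell in D425 from 358 ± 131 to 113 ± 18.7 CPM (SD, n = 3 each), by 1.66 on the log2 scale (edgeR test, adjusted p = 0.00783). It was at 266 ± 3.38 and 374 ± 118 CPM in HD-MB03 controls and shCRX (SD, n = 2 each), and the effects differed by -2.15 ± 0.43 (edgeR test, adjusted p = 0.0163), a call lost without either HD-MB03 control or HD-MB03 shCRX replicate 1 (0.0539 to 0.0940). BSG, the chaperone that carries lactate transporters to the cell surface, fell in HD-MB03 from 1821 ± 458 to 879.5 ± 119.7 CPM, by 1.05 on the log2 scale (edgeR test, adjusted p = 0.0447), and stood at 1366 ± 78.6 and 1518 ± 126 in D425. The effects on BSG differed by 1.202 ± 0.30 (edgeR test, adjusted p = 0.0405). Both BSG calls were lost without any D425 control, D425 shCRX replicate 3, HD-MB03 parental replicate 1 or either HD-MB03 shCRX library, at an adjusted p from edgeR of up to 0.346. No gene of the 5 lists passed in the mean of the lines.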

How the data were processed

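Poly(A) RNA from 10 libraries was sequenced. The deposited values were raw read counts per gene, made by the authors; build GRCh37 (hg19) and the tools HISAT2, HTSeq, bcl2fastq and DESeq2 are named per the submitters' processing notes, with versions and strand setting not given in the sources used here. In each file 5 summary entries were left out, and between 50.5% and 79.3% of reads were counted in genes. Symbols came from a gene name table (51996 of 57820 identifiers matched); exon lengths came from GENCODE annotation of another build, so no position on the files' build is given.

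Counts were scaled by TMM and tested with edgeR 4.0.16 in R 4.3.3 (filterByExpr, robust quasi-likelihood fit of 4 group means with 6 residual degrees of freedom, 16006 genes, biological coefficient of variation 26.0%). Tests were two-sided with Benjamini-Hochberg adjustment over all genes and a threshold of 0.05; ± is the SD of levels or the SE of log2 fold changes, and intervals are 95%. Contrasts were D425 against HD-MB03 with the arms averaged, shCRX against control in each line and in the mean of the lines, and the difference of the shCRX effects. The 11 paralog ratios were compared by exact permutation, with 0.5 added to each count, over 6 against 4 libraries. The planned wording for these ratios named 5 against 5 libraries, which the series does not have. The procedure was tested on simulated counts. Alternatives were DESeq2 1.42.0, its size factors, library totals, no low-count filter, a replicate block, each library left out, vector or parental controls alone, single library-number sets and single arms.

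All 36 members are accounted for. Named with values are CRX, members called in a comparison, both genes of each ratio and the listed single-gene steps and hypoxia genes, and up to 4 called genes of each other list. A gene of these lists that the rule would name is not reported here. The members, the lists and the choice of tests were made with earlier results of these data known. The promoters printed were chosen after their matches were seen. Nothing in the labels tells whether replicates are separate cultures, and p-values then reflect spread among these samples, possibly technical. Reads shared by close paralogs or pseudogenes, as for GAPDH, PGAM1, LDHA, PKM and ENO1, are uncertain. D425 parental and shCRX libraries with the same replicate number share only that number (correlation of their deviations 0.0137).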

Additional observations from a re-analysis of the deposited data

Results flagged for a closer look

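The effects of shCRX differed between the lines for PFKFB3, by 2.49 on the log2 scale (edgeR test, adjusted p = 0.0308): all 3 D425 shCRX libraries were above the D425 controls, and both HD-MB03 libraries labelled shCRX were below the HD-MB03 controls. CRX itself also differed between the lines, by -2.14 (edgeR test, adjusted p = 0.0199), with lower levels in D425 shCRX and higher levels in the HD-MB03 libraries labelled shCRX than in their controls. The CRX call was lost without either HD-MB03 control or HD-MB03 shCRX replicate 1, with vector controls alone and with parental controls alone (adjusted p from edgeR 0.0601 to 0.105). For both genes the library-number sets divide the libraries in the same way, so the set and the effect cannot be told apart.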

How the results depend on the processing

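Counts of members called depended on the setting, and so did the number of all genes called. Between the lines, 7365 of all genes passed, 5304 with the replicate block, 5001 within the high set and 5247 in shCRX libraries alone. In D425 it was 476, and 959 with DESeq2. In HD-MB03 it was 241, 215 with library totals, 790 without the low-count filter and 769 with DESeq2. In the mean of the lines it was 36, 18, 405 and 370 in the same order. For the difference of effects it was 666, 1579 without that filter and 1331 with DESeq2. Between the lines, 16 members passed, and 9 with the replicate block, 10 within the high library-number set and 6 in shCRX libraries alone; leaving out 1 library gave 10 to 17. In D425, 3 passed, 5 with DESeq2 and 0 with vector controls alone or with parental controls alone, and 0 to 3 on leaving out 1 library. In HD-MB03, 1 passed, 0 with library totals, 3 without the low-count filter, 2 with DESeq2, 0 with vector or parental controls alone and 0 to 1 on leaving out 1 library. In the mean of the lines, 1 passed, 0 with library totals, 2 without the low-count filter, 3 with DESeq2, 0 with vector or parental controls alone and 0 to 2 on leaving out 1 library. For the difference of effects, 1 passed, 2 without the low-count filter, 2 with DESeq2, 0 with vector or parental controls alone and 0 to 2 on leaving out 1 library. Vector controls alone leave 1 control library a line, assumed to vary like the other groups, and the cause of the other changes was not tested. Parental controls alone leave 1 control library in HD-MB03. In each of these comparisons fewer of all genes passed with vector or parental controls alone, and 104 did in D425 with parental controls alone. The replicate block was a fit on numbers that D425 libraries merely share; it left 3, 1 and 1 members called in D425, the mean of the lines and the difference of effects.

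Among the members called between the lines, directions turned for PFKP within the high set (0.26), PFKFB3 in shCRX libraries alone (0.31), PGAM1 in shCRX libraries alone (0.0099) and SLC16A3 in controls alone (-0.25). The log2 ratio of PFKP to PFKL was -0.39, -1.21 within the low and 0.43 within the high set. That of PFKM to PFKL was -0.02, from -0.13 to 0.15 on leaving out 1 library: it turned to 0.05 with D425 shCRX replicate 1 left out, to 0.08 with D425 shCRX replicate 2 and to 0.15 with HD-MB03 shCRX replicate 1. For HK2/HK1 that range was -1.48 to -1.21, for EPAS1/HIF1A 1.53 to 2.11 and for PFKFB4/PFKFB3 1.89 to 2.83. Library totals moved the median of all genes by 0.11 on the log2 scale between the lines and by 0.13 in D425, and changes are given relative to TMM scaling. In the HD-MB03 controls 3 counts are 1.56 and 1.61 CPM, so levels there of SLC16A3, PFKFB4, ALDOC, EGLN3, ADM and CA9 rest on few reads.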
